A study of Mus musculus with 10 samples.

Results

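The gamma B protocadherins *Pcdhgb1*, *Pcdhgb2*, *Pcdhgb4*, *Pcdhgb5*, *Pcdhgb6*, *Pcdhgb7* and *Pcdhgb8* were chosen by name, and all 7 were found among the 54532 genes of the count data. Poly(A) RNA was sequenced from NeuN+ nuclei, that is neuronal nuclei sorted by flow cytometry from brains of adult C57BL/6J mice, in 10 libraries. The 5 controls carried floxed alleles and no Cre (Mphosph8fl/fl Nestin-Cre- in control replicates 1 to 3, Morc2afl/fl Nestin-Cre- in control replicates 4 and 5). The 3 *Mphosph8*Δ/Δn libraries were Mphosph8fl/fl Nestin-Cre+ and the 2 *Morc2a*Δ/Δn libraries were Morc2afl/fl Nestin-Cre+. *Nestin*-Cre is active in neural progenitors, and exon 4 was the floxed exon of both genes. Because no control carried Cre, deletion of the gene and presence of Cre cannot be told apart. The study's methods describe its replicates as biological, while the labels do not tie each library to a mouse of its own, and the p-values measure the spread between these libraries.

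Clustered protocadherins are cell-surface adhesion molecules through which neurons recognize their own and other neurites. In the gamma array, each gene has its own promoter and a large variable exon that encodes the extracellular cadherin repeats, the transmembrane segment and part of the cytoplasmic tail, and this exon is spliced to constant exons that all members share. Individual neurons use only some of the promoters, and silent ones carry DNA methylation and H3K9me3. MPP8, the product of *Mphosph8*, is the H3K9me3-binding subunit of the HUSH silencing complex, and MORC2A is a chromatin-compacting ATPase that works with it. The comparisons asked how the levels of these 7 genes in neurons changed when either protein was missing.

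The members lie on the plus strand of chromosome 18 (GRCm38), interleaved with gamma A genes. From 5′ to 3′ the variable exon of *Pcdhgb1* (ENSMUSG00000103037) lies at 37680233 to 37682839, that of *Pcdhgb2* (ENSMUSG00000102748) at 37689828 to 37692369 and that of *Pcdhgb4* (ENSMUSG00000103585) at 37720369 to 37722917. Those of *Pcdhgb5* (ENSMUSG00000103749) and *Pcdhgb6* (ENSMUSG00000103088) lie at 37731009 to 37733559 and at 37742094 to 37744658. The variable exon of *Pcdhgb7* (ENSMUSG00000104063) lies at 37751600 to 37754193 and that of *Pcdhgb8* (ENSMUSG00000103081), annotated as a polymorphic pseudogene, at 37761801 to 37764299. All 7 continue into the same 3 constant exons at 37825021 to 37825079, 37833265 to 37833353 and 37839903 to 37841873. The coding part of the variable exon has between 2364 and 2421 bases, and the constant exons add the same 372 coding bases to every member.

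A read in a constant exon cannot be assigned to a member. Between 31.5% of the exonic bases of *Pcdhgb5* and 54.6% of those of *Pcdhgb1* were shared with another gene on the same strand. How the counting treated such reads is not given in the sources used here. *Pcdhga10*, a gamma A gene with the same constant exons, had 0 counts in all 10 libraries, so reads in those exons were not credited to every gene of the array. The variable exons themselves are alike: their coding parts were 68.9% to 79.1% identical over the 21 pairs of members (median 70.3%), most for *Pcdhgb4* and *Pcdhgb5*, against 55.6% to 58.5% between gamma B and gamma A genes. Of the 50-base windows in the variable exon, the length of the reads, between 2.7% in *Pcdhgb7* and 17.9% in *Pcdhgb2* occurred in another member too. Counts that fall there could be split between members, and, antisense genes at the same position aside, no such window was shared with a gene outside the 7.

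The 7 genes were together higher in *Mphosph8*Δ/Δn nuclei than in controls, while *Morc2a*Δ/Δn nuclei lay closer to the controls. Their summed level was 11.2, 16, 16, 7.52 and 1.34 CPM (counts scaled to the total of their library) in control replicates 1 to 5, 49.4, 31.0 and 27.5 CPM in the *Mphosph8*Δ/Δn libraries, and 18 and 13.4 CPM in the *Morc2a*Δ/Δn libraries. All *Mphosph8*Δ/Δn libraries stood above every control, whereas in *Morc2a*Δ/Δn replicate 1 was above the highest control and replicate 2 was among the controls. The means were 10.4 ± 6.2 CPM (SD, n = 5) over the controls, 36.0 ± 11.7 CPM (SD, n = 3) over the *Mphosph8*Δ/Δn libraries and 15.7 ± 3.23 CPM (SD, n = 2) over the *Morc2a*Δ/Δn libraries, a log2 difference from control of 1.79 and 0.59. Against the controls of the same floxed line alone the log2 differences were 1.32 for *Mphosph8*Δ/Δn and 1.83 for *Morc2a*Δ/Δn. The difference in *Morc2a*Δ/Δn thus depends on which controls are used, and it rests in that case on 2 controls, of which replicate 5 held 9 counts on the 7 genes together and was also the library with the lowest depth (6686038 counts in all). Without control replicate 5 the log2 differences from the remaining 4 controls were 1.51 and 0.31. In RNA pooled over nuclei, more nuclei with a transcript and more transcript per nucleus cannot be told apart.

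**Figure D1:**
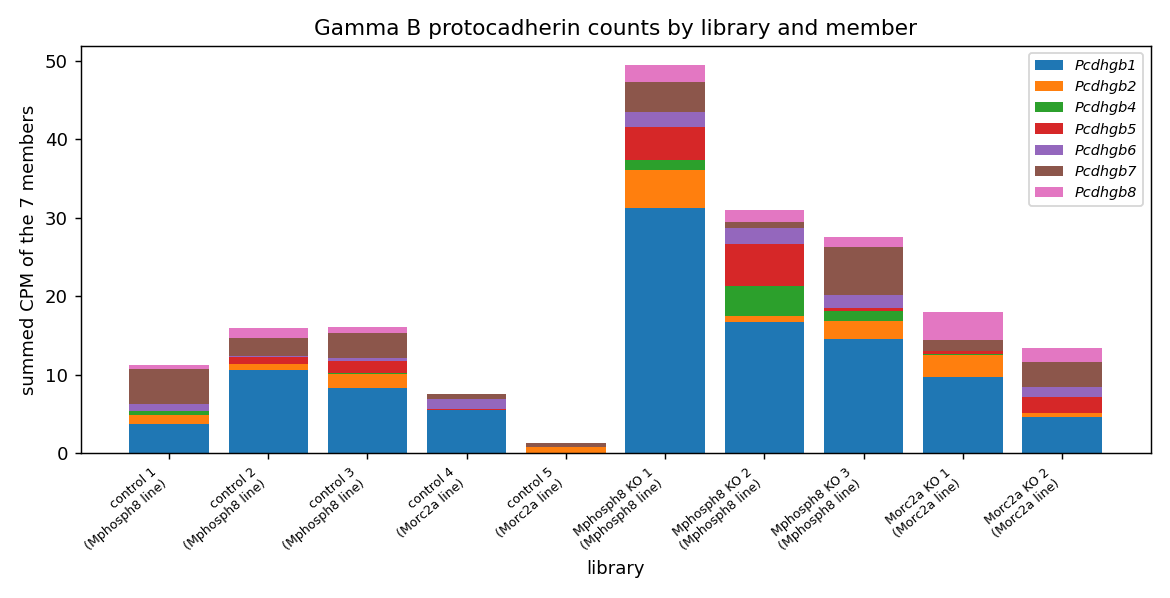
CPM of each gamma B protocadherin stacked by library, so that the height of a bar is the summed CPM of the 7 members (y axis, linear) and the x axis names the library and its floxed line. The 3 *Mphosph8*Δ/Δn bars reach 27.5 to 49.4 CPM and stand above all 5 control bars, of which the highest reaches 16 CPM, and *Pcdhgb1* is the tallest segment in 8 of the 10 libraries.

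*Pcdhgb1*, the 5′-most member, supplied most of the counts in *Mphosph8*Δ/Δn. Its share of all gamma B counts was 55.6% over the controls, 57.7% with *Mphosph8* deleted and 45.5% with *Morc2a* deleted. It was the leading member in 8 of the 10 libraries. The exceptions were control replicate 1, where *Pcdhgb7* led with 39.3% of 89 counts (95% Clopper-Pearson interval 29.1% to 50.3%), and control replicate 5, where *Pcdhgb2* led with 55.6% of only 9 counts (21.2% to 86.3%). These intervals and the others given here cover counting error only, since reads were not marked as single molecules. With *Pcdhgb1* left out, the other 6 members summed to 4.77 ± 2.99 CPM (SD, n = 5) over the controls, 15.2 ± 2.7 CPM (SD, n = 3) over the *Mphosph8*Δ/Δn libraries and 8.54 ± 0.336 CPM (SD, n = 2) over the *Morc2a*Δ/Δn libraries. In this sum both knockouts lay above all controls, since the highest control reached 7.77 CPM and the lower *Morc2a*Δ/Δn library 8.31 CPM.

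The number of members detected was highest with *Mphosph8* deleted. At least 1 count was found for 6, 6, 7, 4 and 2 of the 7 genes in control replicates 1 to 5, for all 7 in each *Mphosph8*Δ/Δn library, and for 6 in both *Morc2a*Δ/Δn libraries. A level above 1 CPM was reached by 3, 3, 4, 2 and 0 members in the controls, by 7, 5 and 6 with *Mphosph8* deleted and by 4 and 5 with *Morc2a* deleted. Controls 4 and 5 were the lowest by both counts, and by the first the *Morc2a*Δ/Δn libraries were level with controls 1 and 2 and below control 3.

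Levels between members were compared as CPM per kilobase of exonic bases that no other gene shares on the same strand. These were 4614 bases for *Pcdhgb5*, 3588 for *Pcdhgb4* and 2499 to 2763 for the others, although the variable exons have 2499 to 2607 bases. The order thus depends in part on the annotation, and *Pcdhgb5* and *Pcdhgb4* could stand higher over the variable exon alone. In control, *Pcdhgb1* had the highest mean (2.15 ± 1.56, SD, n = 5), followed by *Pcdhgb7* (0.863 ± 0.628), *Pcdhgb2* (0.32 ± 0.248), *Pcdhgb8* (0.202 ± 0.215), *Pcdhgb6* (0.198 ± 0.199), *Pcdhgb5* (0.112 ± 0.149) and *Pcdhgb4* (0.0332 ± 0.0606). Each neighbouring pair in this order overlapped over the control libraries. For *Pcdhgb7*, 771 bases also overlie the antisense gene *Gm26672*. With these left out of the length and the counts unchanged, its control mean would be 1.23 CPM per kilobase, which does not move it in the order. Counts from those bases could not be taken out, so this value is an upper limit. In *Mphosph8*Δ/Δn, *Pcdhgb1* (7.93 CPM per kilobase) was above the next member, *Pcdhgb7* (1.35), in every library, and the other 5 had means between 0.581 and 0.967 with overlapping ranges. In *Morc2a*Δ/Δn the order was *Pcdhgb1* (2.73 CPM per kilobase), *Pcdhgb8* (1.1), *Pcdhgb7* (0.864), *Pcdhgb2* (0.576), *Pcdhgb6* (0.262), *Pcdhgb5* (0.259) and *Pcdhgb4* (0.0297), where *Pcdhgb1* was above *Pcdhgb8* and *Pcdhgb5* above *Pcdhgb4* in both libraries and the other neighbours overlapped. If no count came from the bases over *Gm26672*, *Pcdhgb7* would stand at 1.23 CPM per kilobase there, before *Pcdhgb8*. How many counts came from them is not known.

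None of the 7 members passed the test in *Mphosph8*Δ/Δn against control. Calls required an adjusted p below 0.05 (Benjamini-Hochberg over all 18573 genes tested) and a change over 2-fold in edgeR's quasi-likelihood test, which called 0.0969% of all genes higher and 0 genes lower. At an unadjusted p below 0.05, edgeR found 3 of the 7 members (5.67% of all genes), DESeq2 2 and limma-voom 5. Neither DESeq2 nor limma-voom called a member after adjustment. Here and in the comparisons below, the share of all genes at that p was counted for edgeR only, so the counts of the other tools have no background. When all genes with any count were tested, without the filter on low counts, edgeR called 1 member, *Pcdhgb1* (log2 fold change 1.86, adjusted p = 0.000317), higher. The fold change was the same with the filter, while the unadjusted p of edgeR was 0.00777 with it and 4e-07 without it. The share of all genes called without the filter was not counted. All 7 fitted log2 fold changes were above 0, with a median of 1.85, where the background over all genes was 48.7% above 0 and a median of -0.00899. In 4 of the 7 members every *Mphosph8*Δ/Δn library lay above every control, a pattern met by 2.31% of all genes tested. Among these, *Pcdhgb4* passed the filter on low counts only through its *Mphosph8*Δ/Δn libraries and so had to be high there. That leaves 3 members, *Pcdhgb1*, *Pcdhgb6* and *Pcdhgb8*. For the same reason *Pcdhgb4* adds nothing to the counts of fold changes above 0 and of unadjusted p below 0.05.

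*Pcdhgb1* was at 3.76, 10.6, 8.24, 5.54 and 0 CPM in control replicates 1 to 5, at 31.2, 16.7 and 14.5 CPM with *Mphosph8* deleted and at 9.69 and 4.65 CPM with *Morc2a* deleted. The *Mphosph8*Δ/Δn libraries were all above the controls, with replicate 1 well above the others, while both *Morc2a*Δ/Δn libraries fell within the control range. The *Mphosph8*Δ/Δn mean was 20.8 ± 9.05 CPM (SD, n = 3) against 5.64 ± 4.09 CPM (SD, n = 5) over the controls. The log2 fold change was 1.86 (SE 0.62, 3.63-fold) with an adjusted p of 0.764, and 1.45 with an adjusted p of 0.879 against controls of the same line only (edgeR quasi-likelihood test).

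*Pcdhgb4* was nearly silent outside *Mphosph8*Δ/Δn. Its counts were 4, 0, 1, 0 and 0 in control replicates 1 to 5, 12, 39 and 12 in *Mphosph8*Δ/Δn, and 2 and 0 in *Morc2a*Δ/Δn. Every *Mphosph8*Δ/Δn library was above all other libraries, and replicate 2 held more counts than the other two together. In CPM, *Mphosph8*Δ/Δn had 2.08 ± 1.46 (SD, n = 3) and control 0.119 ± 0.218 (SD, n = 5), the largest fitted change of the 7 (log2 fold change 4.03, SE 1.39, adjusted p = 0.772 by edgeR's quasi-likelihood test). The gene passed the filter on low counts only through the *Mphosph8*Δ/Δn libraries.

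*Pcdhgb6* and *Pcdhgb8* also lay above every control in *Mphosph8*Δ/Δn. *Pcdhgb6* was at 0.877, 0.0976, 0.374, 1.19 and 0 CPM in control replicates 1 to 5, at 1.97, 2.03 and 1.66 CPM with *Mphosph8* deleted and at 0 and 1.34 CPM with *Morc2a* deleted. The *Mphosph8*Δ/Δn libraries were close together while 1 *Morc2a*Δ/Δn library had no count and the other was just above the highest control. With *Mphosph8* deleted the log2 fold change was 1.85 (SE 1.21, adjusted p = 0.957, edgeR).

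*Pcdhgb8*, annotated as a polymorphic pseudogene, was at 0.501, 1.27, 0.749, 0 and 0 CPM in control replicates 1 to 5, at 2.17, 1.55 and 1.35 CPM with *Mphosph8* deleted and at 3.62 and 1.86 CPM with *Morc2a* deleted. It was the only member with both knockouts above every control, and its highest library was *Morc2a*Δ/Δn replicate 1. The log2 fold change was 1.69 (SE 1.07, adjusted p = 0.951) in *Mphosph8*Δ/Δn and 2.39 (SE 1.17, adjusted p = 0.485) in *Morc2a*Δ/Δn by edgeR's quasi-likelihood test.

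For *Pcdhgb2*, *Pcdhgb5* and *Pcdhgb7* the groups overlapped. *Pcdhgb2* was at 1.13, 0.683, 1.87, 0 and 0.743 CPM in control replicates 1 to 5, at 4.86, 0.773 and 2.38 CPM with *Mphosph8* deleted and at 2.77 and 0.413 CPM with *Morc2a* deleted. In each knockout 1 library lay within the control range. Its log2 fold change was 1.58 (SE 1.01, adjusted p = 0.951, edgeR) in *Mphosph8*Δ/Δn.

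*Pcdhgb5* was at 0, 0.976, 1.5, 0.0989 and 0 CPM in control replicates 1 to 5, at 4.24, 5.41 and 0.414 CPM with *Mphosph8* deleted and at 0.319 and 2.07 CPM with *Morc2a* deleted. *Mphosph8*Δ/Δn replicate 3 stayed at the control level while the other two were far above it. The counts behind these libraries were 41 (95% Poisson interval 29.4 to 55.6), 56 (42.3 to 72.7) and 4 (1.09 to 10.2), so that the spread between replicates exceeded counting error. The log2 fold change was 2.63 (SE 1.17, adjusted p = 0.872, edgeR).

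*Pcdhgb7* was at 4.39, 2.34, 3.18, 0.693 and 0.594 CPM in control replicates 1 to 5, at 3.73, 0.773 and 6 CPM with *Mphosph8* deleted and at 1.38 and 3.1 CPM with *Morc2a* deleted. Only *Mphosph8*Δ/Δn replicate 3 exceeded the highest control, and replicate 2 was next to the lowest controls. It had the smallest fitted change of the 7 in *Mphosph8*Δ/Δn, with a log2 fold change of 0.64 (SE 0.76, adjusted p = 0.997, edgeR), and of 0.08 against controls of the same line.

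**Figure D2:**
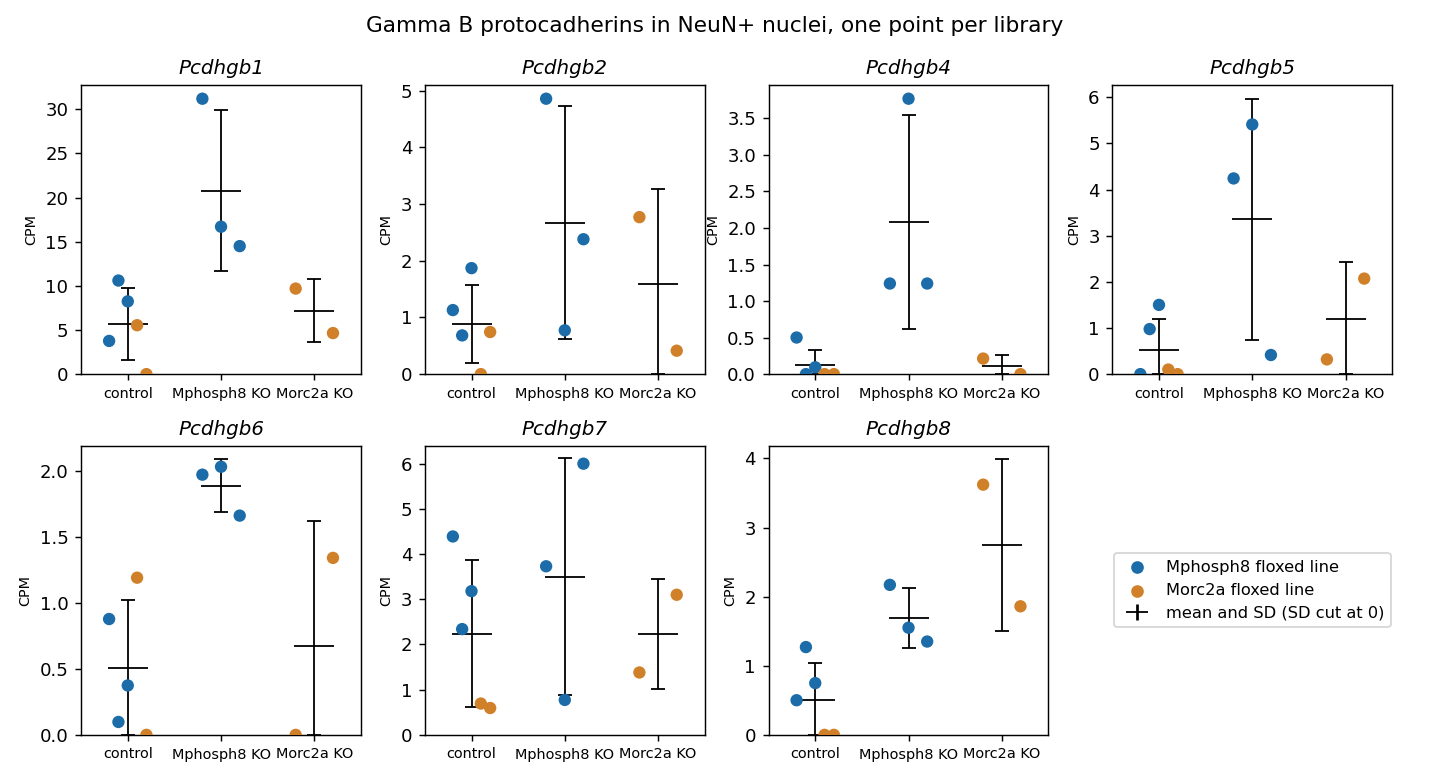
CPM (y axis, linear from 0, scaled separately for each gene) of the 7 gamma B protocadherins by group, with 1 point for each library, blue for the *Mphosph8* floxed line and orange for the *Morc2a* floxed line. Bars show mean and SD, cut at 0, and for *Pcdhgb1*, *Pcdhgb4*, *Pcdhgb6* and *Pcdhgb8* all *Mphosph8*Δ/Δn points lie above all control points.

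In *Morc2a*Δ/Δn no member passed the test against control by edgeR, which called 0.0377% of all genes higher and 0.0215% lower, and 0 of the 7 members had an unadjusted p below 0.05 (10.7% of all genes). limma-voom called 0 members and found 1 at an unadjusted p below 0.05. DESeq2 gave 0 of the 7 members an adjusted p, since its own filter on low counts set them aside, so it could make no call, and it found 1 at an unadjusted p below 0.05. The log2 fold change was above 0 in 5 of 7 members with a median of 0.39, against 48.7% of all genes and a median of -0.0138. *Pcdhgb8* alone had both *Morc2a*Δ/Δn libraries above every control, against 7.59% of all genes. For *Pcdhgb1* (0.32, SE 0.73), *Pcdhgb2* (0.83, SE 1.15), *Pcdhgb5* (1.15, SE 1.33) and *Pcdhgb6* (0.39, SE 1.42) the log2 fold change was smaller than its standard error, and for *Pcdhgb4* (-0.11, SE 1.81) and *Pcdhgb7* (0, SE 0.88) it was near 0. For all 7 a change of 2-fold in either direction lies within 2 standard errors of none. Both knockouts were compared with the same control libraries.

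**Figure D3:**
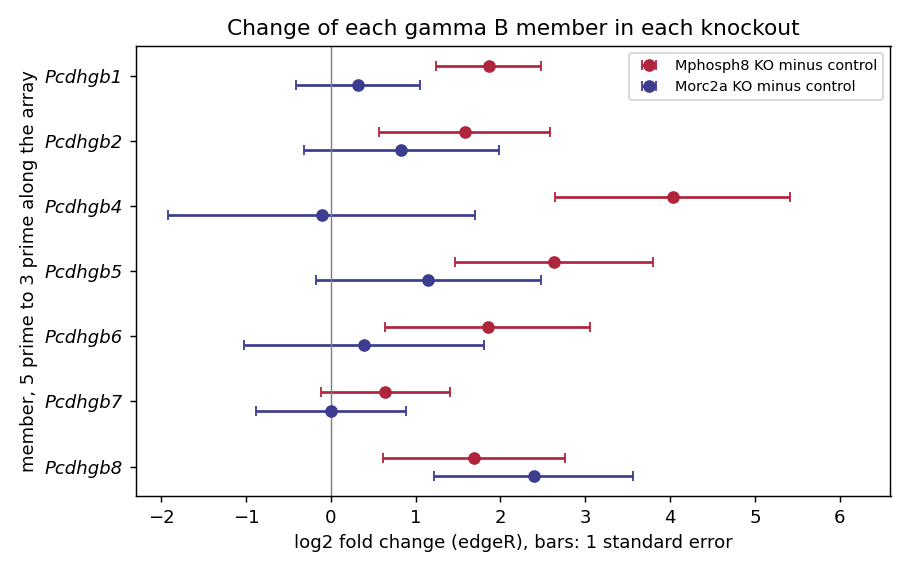
Fitted log2 fold change against control (x axis) with 1 standard error to each side for the 7 gamma B protocadherins in the order of their position (y axis), red for *Mphosph8*Δ/Δn and blue for *Morc2a*Δ/Δn. The standard errors were derived from the F value of the test. All red points are above 0, from 0.64 for *Pcdhgb7* to 4.03 for *Pcdhgb4*, and *Pcdhgb8* is the only member with the blue point to the right of the red one.

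The mean levels of several members differed between the control libraries of the floxed lines. *Pcdhgb7* was at 3.3 ± 1.03 CPM (SD, n = 3) in the *Mphosph8* floxed controls and at 0.643 ± 0.0696 CPM (SD, n = 2) in the *Morc2a* floxed controls. *Pcdhgb8* had 4, 13 and 8 counts in the *Mphosph8* floxed controls and 0 in both *Morc2a* floxed controls, which makes it at least 4.71-fold higher in the former when 3 counts over the group are taken as the limit. *Pcdhgb1* was at 7.54 ± 3.49 CPM (SD, n = 3) and 2.77 ± 3.92 CPM (SD, n = 2). The fitted difference, *Morc2a* line minus *Mphosph8* line, was below 0 in 6 of 7 members, against 50.3% of all genes, and *Pcdhgb4* and *Pcdhgb8* had 0 counts in both *Morc2a* floxed controls. By edgeR 0 members passed the test between the lines, which called 0.0538% of all genes higher and 0.0754% lower in the *Morc2a* line, and 2 had an unadjusted p below 0.05 (*Pcdhgb7*, adjusted p = 0.457, and *Pcdhgb8*, adjusted p = 0.308), as had 9.21% of all genes. DESeq2 called 0 of the 6 members it gave an adjusted p, with 2 at an unadjusted p below 0.05 and limma-voom 0 with 0. Without control replicate 4, which leaves a lone *Morc2a* floxed control with 0 counts on *Pcdhgb1*, edgeR called that gene between the lines, under the assumption that the lone library varies like the other groups. How many of all genes were called without that library was not counted. Floxed line and any other difference between these sets of libraries cannot be told apart.

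Against the controls of their own line, all *Mphosph8*Δ/Δn libraries stayed above all controls in the same 4 members, *Pcdhgb1*, *Pcdhgb4*, *Pcdhgb6* and *Pcdhgb8*, a pattern met by 6.13% of all genes. Of these, *Pcdhgb4* again had to be high there to pass the filter. All *Morc2a*Δ/Δn libraries lay above all own-line controls in 3 members, *Pcdhgb5*, *Pcdhgb7* and *Pcdhgb8*, against 18.1% of all genes. *Pcdhgb8* was at least 15.4-fold higher in *Morc2a*Δ/Δn (2.74 ± 1.25 CPM, SD, n = 2) than 3 counts over both *Morc2a* floxed controls would be (adjusted p = 0.229, edgeR). No member was called by edgeR in either comparison within a line, where 0.0538% of all genes were called higher in *Mphosph8*Δ/Δn and 0.0377% higher and 0.0162% lower in *Morc2a*Δ/Δn. The effect of one knockout minus that of the other, tested as an interaction with line, called 0 members and 0% of all genes by edgeR, with 1 member at an unadjusted p below 0.05, *Pcdhgb8* (adjusted p = 0.453), against 7.95% of all genes. DESeq2 and limma-voom called 0 members for the interaction, again with 1 each at an unadjusted p below 0.05.

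When the knockouts were compared directly, *Pcdhgb1* was at 14.5 to 31.2 CPM in *Mphosph8*Δ/Δn and at 4.65 and 9.69 CPM in *Morc2a*Δ/Δn (log2 difference 1.53, SE 0.83, adjusted p = 0.461, edgeR). *Pcdhgb6* was at 1.66 to 2.03 CPM against 0 and 1.34 CPM (log2 difference 1.47, SE 1.61, adjusted p = 0.77, edgeR). *Pcdhgb4*, which passed the filter only through *Mphosph8*Δ/Δn, was at 1.24 to 3.77 CPM against 0 and 0.213 CPM (log2 difference 4.14, SE 2.01, adjusted p = 0.412, edgeR). How many of all genes separate the knockouts in this way was not counted. *Pcdhgb8* was the only member with the lower mean in *Mphosph8*Δ/Δn (log2 difference -0.69, SE 1.32, adjusted p = 0.885, edgeR). By edgeR 0 of 7 members and 0.0323% of all genes in each direction passed the test, and 0 members had an unadjusted p below 0.05, against 12.5% of all genes. limma-voom called 0 members with 1 at an unadjusted p below 0.05. DESeq2 gave an adjusted p to 1 member only and did not call it, with 1 at an unadjusted p below 0.05.

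The spread between libraries of a group was larger for the members than for most genes. The biological coefficient of variation estimated by edgeR was 0.605 for *Pcdhgb1*, 0.72 for *Pcdhgb7* and between 0.895 and 1.07 for the other 5, against a median of 0.278 over all genes tested. At the depths of these libraries 3 counts correspond to between 0.281 and 0.446 CPM, and *Pcdhgb4*, *Pcdhgb5*, *Pcdhgb6* and *Pcdhgb8* had fewer than 3 counts in 2 to 4 of the 5 controls.

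The other arrays of the cluster give the setting of these values. Among the gamma A genes, which have the same architecture, 10 of 12 passed the filter and all 10 had a log2 fold change above 0 in *Mphosph8*Δ/Δn. Of these, *Pcdhga2*, *Pcdhga7* and *Pcdhga9* would not have passed without the *Mphosph8*Δ/Δn libraries and so, like *Pcdhgb4*, had to be high there. In gamma A 2 genes were called (*Pcdhga6*, log2 fold change 1.97, adjusted p = 0.0349, and *Pcdhga12*, 1.4, adjusted p = 0.0231, by edgeR). Of the gamma C genes, *Pcdhgc4* was called (log2 fold change 1.34, adjusted p = 0.0231, edgeR). In the beta array, whose genes have a single exon, 20 of 21 genes tested were above 0 and 9 were called, and in the alpha array 5 of 9 were above 0 and 0 were called. The median log2 fold change was 2.63 for gamma A, 1.85 for gamma B, 0.93 for gamma C, 1.13 for beta and 0.19 for alpha. The medians of gamma A and gamma B include the genes that had to be high in *Mphosph8*Δ/Δn to pass the filter. In alpha, *Pcdha2* and *Pcdhac1* (log2 fold change 1.66 and 1.65) also would not have passed without a *Mphosph8*Δ/Δn library. In *Morc2a*Δ/Δn the medians were 1.38, 0.39, 0.19, 0.7 and 0.23, and the called genes were *Pcdhb6* (2.29, adjusted p = 0.0174) and *Pcdhb15* (1.68, adjusted p = 0.0438, edgeR). The differences between arrays were not tested.

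Of the called gamma genes, *Pcdhga6* was at 3.11 ± 0.991 CPM (SD, n = 5) over the controls and at 12.3 ± 0.824 CPM (SD, n = 3) with *Mphosph8* deleted. *Pcdhga12* was at 47.3 ± 16.7 CPM (SD, n = 5) over the controls, 125 ± 21.8 CPM (SD, n = 3) over the *Mphosph8*Δ/Δn libraries and 101 ± 26.5 CPM (SD, n = 2) over the *Morc2a*Δ/Δn libraries. *Pcdhgc4* was at 67.0 ± 22.9, 170 ± 27.9 and 133 ± 35.1 CPM. Gamma B genes took between 1.52% and 10.8% of all gamma CPM in control, between 7.74% and 11.1% in *Mphosph8*Δ/Δn, and 5.51% and 5.85% in *Morc2a*Δ/Δn. The control range overlapped that of each knockout, and both *Morc2a*Δ/Δn libraries lay below all *Mphosph8*Δ/Δn libraries in this share, a difference that was not tested.

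**Figure D4:**
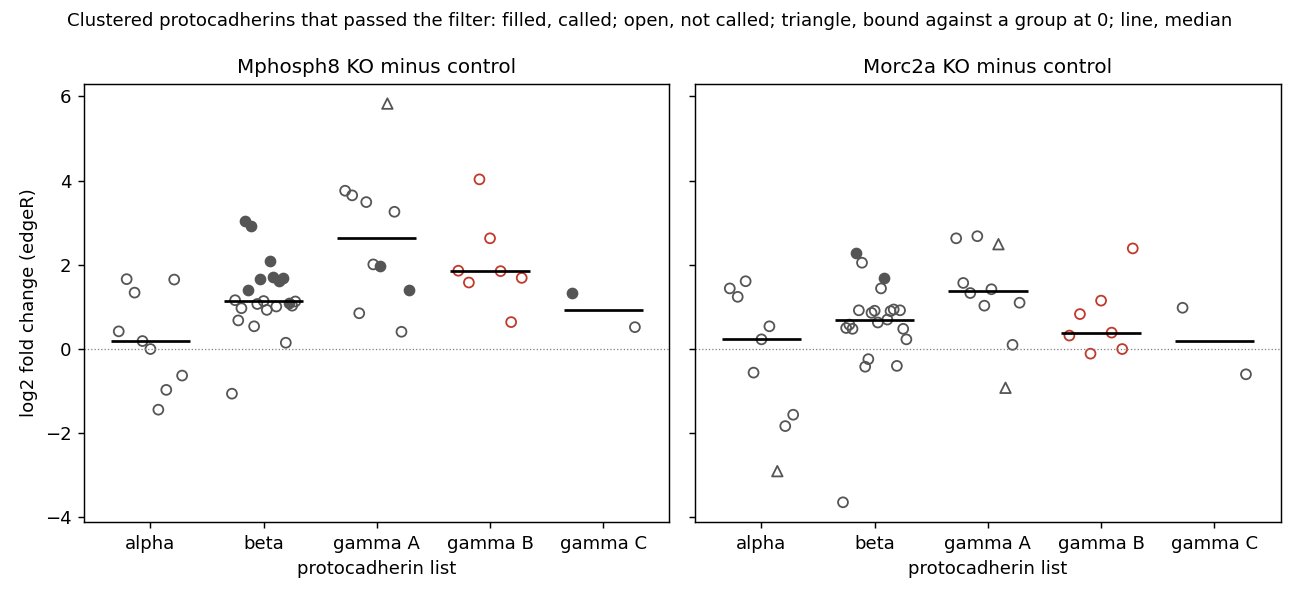
Log2 fold change against control (y axis) of every clustered protocadherin that passed the filter on low counts, by array (x axis), for *Mphosph8*Δ/Δn on the left and *Morc2a*Δ/Δn on the right. Filled points passed the test, open points did not, triangles are bounds for genes at 0 counts in a whole group, gamma B is in red and lines mark medians, which for gamma B are 1.85 and 0.39.

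The genes whose log2(CPM + 1) followed the summed gamma B level most closely over the 10 libraries, out of 18566 other genes, were *Bptf* (Pearson r = 0.945), *Fam221b* (0.911), *Neb* (0.905), *Pcdhb14* (0.9) and *1110002E22Rik* (0.899). These are the highest of many correlations over points that share their groups and are given as a description. Of the 5, *Pcdhb14*, a beta protocadherin, was called in *Mphosph8*Δ/Δn (adjusted p = 0.0231, edgeR) and had a mean of 11.2 CPM over the controls against 48.2 CPM with *Mphosph8* and 30.6 CPM with *Morc2a* deleted.

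Facts of the libraries bear on these values as follows. The total count was between 6686038 and 10764555 per library. *Rbfox3*, which encodes NeuN, was at 232 ± 49.4 CPM (SD, n = 5) over the controls, 272 ± 52.7 CPM (SD, n = 3) over the *Mphosph8*Δ/Δn libraries and 265 ± 20.1 CPM (SD, n = 2) over the *Morc2a*Δ/Δn libraries. Counts over the whole gene did not show the deletions. *Mphosph8* was at 38.7 ± 6.81 CPM in control and 30.7 ± 10.2 CPM in its knockout (adjusted p = 0.967), and *Morc2a* at 140 ± 14.7 CPM and 219 ± 5.46 CPM (adjusted p = 0.0916, edgeR). Reads from the exons other than exon 4 are included in them. The study verified the loss of both by quantitative PCR and immunoblots of whole brain, and it states that mRNA lacking exon 4 is subject to decay. A list of 6 HUSH and partner genes included *Mphosph8* and *Morc2a* themselves. Of these 6 and of 12 genes of promoter choice in the cluster, such as *Ctcf*, 0 were called in either knockout. At an unadjusted p below 0.05, edgeR found 1 and 0 in *Mphosph8*Δ/Δn and 2 and 1 in *Morc2a*Δ/Δn. *Morc2a* itself was among the HUSH genes so counted in each knockout, with log2 fold changes of 0.36 and 0.64. Of the marker genes 0 were called in either knockout against control. At an unadjusted p below 0.05 (edgeR), 5 of 8 neuron markers were lower in *Morc2a*Δ/Δn and 1 was higher. There 3 of 6 inhibitory markers were lower, and each other list had at most 2. Against own-line controls, 5 of 7 granule cell markers tested were higher in *Mphosph8*Δ/Δn and 5 of 7 lower in *Morc2a*Δ/Δn at that p. Between the control lines, 4 of these 7 were higher in the *Morc2a* line and 0 lower. In *Morc2a*Δ/Δn against own-line controls, 5 of 8 neuron and 3 of 8 oligodendrocyte markers were also lower, with 0 higher in either list. Between the knockouts 1 excitatory marker was called, higher in *Mphosph8*Δ/Δn.

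The summed level of 8 neuron markers was 4530 to 5220 CPM over the controls, 4570 to 4850 CPM over the *Mphosph8*Δ/Δn libraries and 3560 to 4190 CPM over the *Morc2a*Δ/Δn libraries. Inhibitory neuron markers (6 genes) were at 1500 to 1890, 1710 to 1790 and 1150 to 1410 CPM in the same order, and excitatory neuron markers (6 genes) at 742 to 906, 757 to 824 and 427 to 780 CPM. Markers of cerebellar granule cells (8 genes) ranged most among the controls, from 82.1 to 512 CPM, and were at 128 to 427 and 80.8 to 81.8 CPM in the knockouts. Of the non-neuronal lists, each of 8 genes, astrocyte markers summed to 496 to 667, 449 to 599 and 375 to 518 CPM and oligodendrocyte markers to 750 to 979, 734 to 987 and 555 to 685 CPM. Microglial markers summed to 45.3 to 75.9, 43.5 to 54.4 and 35.9 to 48.3 CPM and endothelial markers to 5.26 to 11.9, 9.63 to 12.7 and 5.86 to 9.92 CPM. In both *Morc2a*Δ/Δn libraries the sums for neuron, inhibitory neuron, granule cell and oligodendrocyte markers lay below all controls, and the other sums overlapped the control range. The endothelial markers *Cdh5* and *Cldn5* had 0 counts in all *Mphosph8*Δ/Δn and in all *Morc2a*Δ/Δn libraries, respectively. The part of cell composition in the gamma B levels was not tested.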

How the data were processed

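Single-end poly(A) RNA libraries of sorted neuronal nuclei were analysed from the deposited read counts, whole numbers per gene to which the authors applied no normalization. Per the methods and the submitters' processing notes, the authors trimmed reads with Trim Galore 0.5.0, removed abundant sequences with Bowtie2 2.3.4.1, aligned to GRCm38 with STAR and counted with featureCounts of Subread 1.6.2. The strand setting and the handling of reads overlapping several genes are not given in the sources used here, and either could change how reads are divided among gamma genes. Symbols, exons and positions came from a GENCODE annotation of GRCm38, joined by Ensembl identifier.

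Counts were analysed with edgeR 4.0.16 in R 4.3.3 (TMM scaling, filterByExpr, 1 quasi-likelihood fit with 3 group means over 10 libraries). Comparisons within a line, between control lines and the interaction came from a fit of 4 groups. All 18573 genes kept were tested and adjusted together (Benjamini-Hochberg, adjusted p below 0.05 and fold change above 2). Standard errors (SE) were derived as the absolute log2 fold change divided by the square root of the F value of the quasi-likelihood test. They were not estimated separately and are uncertain where a group is at or near 0 counts. CPM used TMM-scaled totals. Shares of 50-base windows were computed in Python 3.11.15. The fits were tested on simulated data.

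Genes named are the 7 members, the targeted genes, *Rbfox3*, the 5 genes most like the summed level, and in the listed arrays the called genes and the highest of gamma A and gamma C. *Pcdha2*, *Pcdhac1*, *Pcdhga2*, *Pcdhga7*, *Pcdhga9*, *Pcdhga10*, *Gm26672*, *Cdh5* and *Cldn5* were chosen after their values were seen, and *Ctcf* is named as an example of its list. The members and lists were chosen with earlier results of these data known.

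Alternatives were RLE scaling, plain CPM for sums, no filter on low counts, DESeq2 1.42.0, limma-voom (limma 3.58.1), controls of the own line, own-line libraries alone, each library left out, and the replicate number as a block. Replicates of a group differed beyond sampling noise (chi-square per degree of freedom 9.55 to 38.4 over 14 pairs), so no library was counted as a duplicate.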

Additional observations from a re-analysis of the deposited data

Results flagged for a closer look

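Control replicate 1 stood apart from the other controls for *Pcdhgb4*, at 0.501 CPM (4 counts), where the other 4 controls had 0 or 0.0936 CPM. The gap was above the 95% critical value of Dixon's test for 5 samples, which chance exceeds in about 5% of groups, and 9 groups of values were examined. Without control replicate 1 the log2 fold change of *Pcdhgb4* in *Mphosph8*Δ/Δn was 5.76, against 4.03 with all controls, and then rests on 1 count over the remaining 4 controls.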

How the results depend on the processing

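With no filter on low counts 1 member was called in *Mphosph8*Δ/Δn (*Pcdhgb1*), where the filtered test called 0. Its fold change was the same in both, and the share of all genes called without the filter was not counted. Leaving out a library gave 0 to 1 members called between the control lines and 0 in each other comparison. The summed log2 level, 1.79 with *Mphosph8* deleted and 0.59 with *Morc2a* deleted, was 1.32 and 1.83 with own-line controls, and 1.49 to 2 and 0.31 to 0.8 with a library left out. Directions turned for *Pcdhgb7* in *Morc2a*Δ/Δn (log2 0.01 unfiltered, 0.23 by limma-voom, 1.77 with own-line controls, 1.78 with own-line libraries alone, an alternative added after the data were seen, and -0.7 to 0.47 with a library left out), for *Pcdhgb4* in *Morc2a*Δ/Δn (0.16 by limma-voom, 3.17 with own-line controls, -3.28 to 1.62 with a library left out) and for *Pcdhgb6* in *Morc2a*Δ/Δn (-0.41 by limma-voom, -5.31 to 1.37 with a library left out). With a library left out, *Morc2a*Δ/Δn gave -1.07 to 1.62 for *Pcdhgb2*, -0.72 to 2.02 for *Pcdhgb5* and -0.3 to 0.75 for *Pcdhgb1*. Some of these values rest on a group at 0 counts and depend on the prior count. The cause was not tested. DESeq2 gave no adjusted p for the members in *Morc2a*Δ/Δn, so there it gave no call to compare.

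Same-numbered libraries did not deviate together (residual correlation -0.0377 to 0.0676 in 7 pairs, -0.0671 to 0.0422 in 24 others), and the labels tie the numbers to no shared litter. A replicate block changed no count of calls (0 and 0) and gave -0.27 for *Pcdhgb1* in *Morc2a*Δ/Δn and -0.15 for *Pcdhgb7* in *Mphosph8*Δ/Δn. The adjusted p of *Pcdhgb1* in *Mphosph8*Δ/Δn was 0.387 to 0.927 with a library left out and 0.000317 to 0.879 under the other settings. With few counts per library, the depth limits what can be said of *Pcdhgb4*, *Pcdhgb5*, *Pcdhgb6* and *Pcdhgb8*.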

Other observations

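Correlations between members ranged from almost none to moderate. Pearson correlations of log2(CPM + 1) over the 10 libraries were between 0.06 and 0.68 in the 21 pairs of members, with a median of 0.51, lowest for *Pcdhgb5* and *Pcdhgb7*. Other pairs of genes were not compared. The libraries share groups and depth, and some reads could be credited to either member of a pair, so these values are a description.

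With the libraries of a group pooled, the members took different shares of the gamma B counts. *Pcdhgb7* took 20.4% of the control counts, 9.59% with *Mphosph8* deleted and 14.4% with *Morc2a* deleted. *Pcdhgb4* took 0.982%, 5.92% and 0.669%, and *Pcdhgb8* took 4.91%, 4.7% and 17.4%. Whether these shares differ between groups was not tested.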
